A study of Mus musculus with 8 samples.

Results

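The transcripts of 4 genes, Dmp1 (ENSMUSG00000029307), Ces2g (ENSMUSG00000031877), Aldh3a1 (ENSMUSG00000019102) and Pbp2 (ENSMUSG00000047104), were followed across 4 groups of mouse primary myotubes. They were picked from the 53647 gene identifiers of the count files because they were far lower after oncostatin M (OSM) or leukaemia inhibitory factor (LIF). Their levels in those groups are therefore given as a description, without a test, and no support is drawn from them. All 4 were among the 15603 genes with enough counts to be tested. With interleukin 6 (IL6), whose libraries the choice did not use, each gene was tested against the control libraries that it did use.

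Myotubes are elongated muscle cells with many nuclei, made in the dish by fusion of myoblasts. The cells were wild-type in every group and came from limb muscle of pups 2 to 3 days old, so no group stands for adult muscle. Differentiation took place in medium with 5% horse serum, and the cells were harvested at 72 h of it. The untreated group is labelled only as control, while the other 3 groups had OSM, LIF or IL6 at 250 ng/ml for 48 h. Each group holds 2 libraries, and the labels do not say whether these came from separate animals or dishes, so p-values measure only the spread between these libraries.

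OSM, LIF and IL6 belong to one cytokine family and signal through receptor complexes that share the subunit gp130, with the JAK kinases and STAT3 downstream. The 4 genes make unrelated products. Dmp1 encodes dentin matrix protein 1, an acidic phosphoprotein of mineralised matrix that is best known from osteocytes and the cells that make dentine, and that belongs to the SIBLING family. Ces2g encodes a carboxylesterase, a serine hydrolase that splits ester bonds in lipids and drugs, a family best known from liver and intestine. Aldh3a1 encodes an aldehyde dehydrogenase that oxidises reactive aldehydes, is abundant in the cornea and is a known target of the aryl hydrocarbon receptor. Pbp2 encodes a phosphatidylethanolamine-binding protein related to Pebp1, which is also called Raf kinase inhibitor protein.

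Libraries held 29482077 to 30025471 counts over genes, and the mean chi-square per gene between replicates was 3.04 to 12.3, above the 1 of counting error alone. Summed levels of 8 myotube markers were 25700 to 26700 CPM (counts scaled to library size) in control and 22400 to 24900 with IL6. They were 23000 to 24500 with LIF and 22300 to 22400 with OSM. Of these 8, Mylpf (adjusted p = 0.00452, edgeR) and Myh8 (adjusted p = 0.0447, edgeR) were called lower with OSM. With LIF only Myh8 was (adjusted p = 0.0385, edgeR). Over all tested genes 10.6% were called lower with OSM and 3.46% with LIF. In bulk RNA, fewer cells of a type and less RNA per cell cannot be told apart.

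Because Pbp2 has a much more abundant relative, the coding sequences of both are shown to make plain how far their reads could be mistaken for one another. In the reference annotation GENCODE M21 each has a coding sequence of 564 bases, of which 461 were identical (81.7%), 103 differed and none was gapped. The opening 90 coding bases follow, 5′ to 3′, with the 23 positions that differ in capitals.
Pbp2: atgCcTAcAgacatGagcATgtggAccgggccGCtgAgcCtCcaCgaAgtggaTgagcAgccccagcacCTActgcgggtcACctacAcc
Pebp1: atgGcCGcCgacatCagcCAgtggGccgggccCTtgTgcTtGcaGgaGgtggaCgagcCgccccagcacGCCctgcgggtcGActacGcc
The longest identical run in the whole alignment was 21 bases. No stretch of 50 bases of the Pbp2, Dmp1 or Aldh3a1 transcript occurred in a transcript of another gene. For Ces2g 4.02% of such stretches did, mostly in Ces2f and Ces2e, so a small share of its reads could not be placed with certainty. None of the 4 genes overlapped an exon of another gene on either strand in that annotation.

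Dmp1 stood lower in each successive group, from control through IL6 and LIF to OSM. Its counts were 267 and 406 in the control libraries, 211 and 245 with IL6, 100 and 106 with LIF, and 52 and 55 with OSM. No library of one group overlapped one of the next. Pair by pair, 14.1% of tested genes had both IL6 libraries below both control libraries. For LIF below IL6 the share was 22.3%, and for OSM below LIF 28.6%. The share with all of these gaps at once was not counted, and the choice used the control, LIF and OSM libraries. Scaled to CPM, the means were 11.4 ± 3.16 (SD, n = 2) in control, 7.62 ± 0.907 with IL6, 3.46 ± 0.133 with LIF and 1.81 ± 0.0472 with OSM. The OSM libraries thus kept 15.9% of the control level and the LIF libraries 30.3%. In the fit across all genes the log2 difference from control was -2.65 (SE 0.21) with OSM and -1.72 (SE 0.191) with LIF, or 6.28-fold and 3.3-fold lower. The control replicates differed far more than those of the other groups.

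Ces2g was lowest with OSM by a wide margin. Its counts were 146 and 220 in control, 138 and 168 with IL6, 103 and 108 with LIF, and 21 and 24 with OSM. The IL6 libraries overlapped the control libraries, the LIF libraries lay just under both, and the OSM libraries lay far below everything else. Mean CPM was 6.2 ± 1.68 (SD, n = 2) in control, 5.12 ± 0.779 with IL6, 3.54 ± 0.109 with LIF and 0.762 ± 0.0615 with OSM, so that 57.1% of the control level was left with LIF and 12.3% with OSM. The log2 difference from control was -3.02 (SE 0.256) with OSM, an 8.1-fold lower level. With LIF it was -0.81 (SE 0.203), and -0.50 without control replicate 2. The 45 counts behind the OSM mean carry a 95% counting error of about 30.4% of the value.

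Aldh3a1 was low with both LIF and OSM. Its counts were 242 and 411 in control, 204 and 228 with IL6, 107 and 140 with LIF, and 123 and 105 with OSM. The LIF and OSM libraries overlapped each other and lay below all IL6 and control libraries. Mean CPM was 11.05 ± 3.89 (SD, n = 2) in control, 7.22 ± 0.666 with IL6, 4.14 ± 0.771 with LIF and 3.87 ± 0.484 with OSM. This gene had the widest gap between the control replicates, the second at 1.66 times the level of the first. The log2 difference from control was -1.52 (SE 0.232) with OSM and -1.42 (SE 0.23) with LIF.

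Pbp2 split the groups into a high and a low pair. Its counts were 207 and 219 in control, 218 and 176 with IL6, 72 and 85 with LIF, and 85 and 52 with OSM. Control and IL6 libraries overlapped, LIF and OSM libraries overlapped, and the pairs lay well apart. Mean CPM was 7.23 ± 0.178 (SD, n = 2) in control, 6.57 ± 0.902 with IL6, 2.63 ± 0.301 with LIF and 2.33 ± 0.822 with OSM. The log2 difference from control was -1.64 (SE 0.212) with OSM and -1.45 (SE 0.208) with LIF. Here the control replicates were close, and the spread was largest between the OSM replicates.

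**Figure D1:**
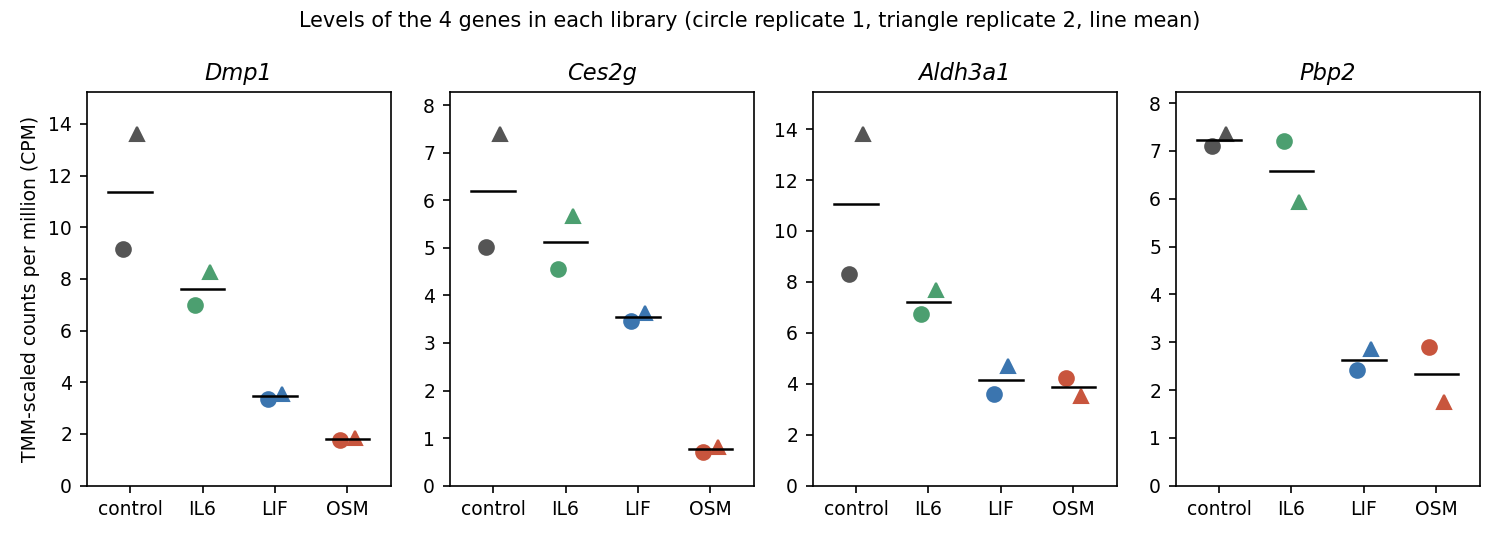
CPM of Dmp1, Ces2g, Aldh3a1 and Pbp2 in each of the 8 libraries (points) with the mean of the 2 libraries of a group, for control, IL6, LIF and OSM. Dmp1 points are lower in each successive group, Ces2g points with OSM lie far below those with LIF, and Aldh3a1 and Pbp2 have overlapping LIF and OSM points.

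Per kilobase of exon, which allows levels to be compared between genes, Aldh3a1 and Pbp2 had the highest control levels, 5.69 and 5.65 CPM per kb. Dmp1 followed at 4.12 and Ces2g at 1.73 CPM per kb. With OSM the order was Aldh3a1 at 1.99, Pbp2 at 1.82, Dmp1 at 0.656 and Ces2g at 0.213 CPM per kb. For scale, Pebp1 stood at 149 to 155 CPM per kb over the 4 groups.

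In all 4 genes the group means ran in the order control, IL6, LIF, OSM from high to low, which was also the order of 12.9% of the tested genes. Both OSM libraries lay below both control libraries in each gene, as in 31.0% of tested genes, and both LIF libraries did so too, as in 26.8%. Since the genes were picked for these falls, nothing is read from those counts. Both LIF libraries also lay below both IL6 libraries in each of the 4, against 22.3% of tested genes, and this contrast uses the same LIF libraries as the choice. The log2 difference of LIF from IL6 was -1.14 (SE 0.196) for Dmp1, -0.53 (SE 0.206) for Ces2g, -0.80 (SE 0.237) for Aldh3a1 and -1.32 (SE 0.21) for Pbp2.

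OSM against LIF differed between the genes, and is given as a description because the choice used these libraries. Both OSM libraries lay below both LIF libraries for Dmp1 and Ces2g, but not for Aldh3a1 and Pbp2 (28.6% of tested genes showed this). The log2 difference of OSM from LIF was -2.21 (SE 0.271) for Ces2g and -0.93 (SE 0.235) for Dmp1. For Aldh3a1 it was -0.10, with a 95% interval from -0.66 to 0.46, and for Pbp2 -0.18, from -0.69 to 0.33. These intervals leave room for a difference in either direction, and the sign turned when 1 library was left out: Aldh3a1 stood at 0.10 without LIF replicate 2 and at 0.03 without OSM replicate 2, and Pbp2 at 0.15 without OSM replicate 2. Put as a share of the OSM difference on the log2 scale, the LIF difference was 26.8% for Ces2g, 64.9% for Dmp1, 88.9% for Pbp2 and 93.3% for Aldh3a1.

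The genes also sat at different places among all those tested. From the most lowered gene, Ces2g ranked 23 and Dmp1 36 of 15603 with OSM, while Pbp2 ranked 228 and Aldh3a1 264. With LIF, Dmp1 ranked 33, Pbp2 64, Aldh3a1 71 and Ces2g 348. Ces2g thus ranked before all the others with OSM and after all of them with LIF, and both rankings are set against the same control libraries.

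IL6 is the comparison that the choice of genes did not use, although its control libraries are the same ones. Genes picked for falls from these control libraries tend to have high control values. The IL6 differences may therefore be too low and their p-values too small. Across all tested genes edgeR's quasi-likelihood test called 0.00% with IL6 against control, with 795 genes at an unadjusted p under 0.05 and 17 called by DESeq2. None of the 4 genes passed in edgeR's test, and DESeq2 gave no adjusted p for them. Without the filter on low counts, Dmp1 (adjusted p = 0.0323) and Aldh3a1 (adjusted p = 0.013) did pass in edgeR's test. Dmp1 had a log2 difference of -0.58 (SE 0.174), with a 95% interval from -0.96 to -0.20, an unadjusted p of 0.00541 in that test and an adjusted p of 0.943. Aldh3a1 stood at -0.62 (SE 0.216), from -1.09 to -0.14, with an adjusted p of 0.943 in the same fit. Both IL6 libraries lay below both control libraries in these 2 genes, as in 14.1% of tested genes.

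For Ces2g the IL6 difference was -0.28 (SE 0.196; -0.70 to 0.14; adjusted p = 0.947, edgeR), and for Pbp2 -0.14 (SE 0.188; -0.54 to 0.27; adjusted p = 0.959, edgeR). Their IL6 and control libraries overlapped. Control replicate 2 lay above replicate 1 in all 4 genes, as in 7799 of the 15603 tested genes. Without it the IL6 difference was -0.26 for Dmp1, -0.20 for Aldh3a1 and 0.03 for Ces2g. Without control replicate 1 it was -0.84, -0.94 and -0.53 in the same order.

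**Figure D2:**
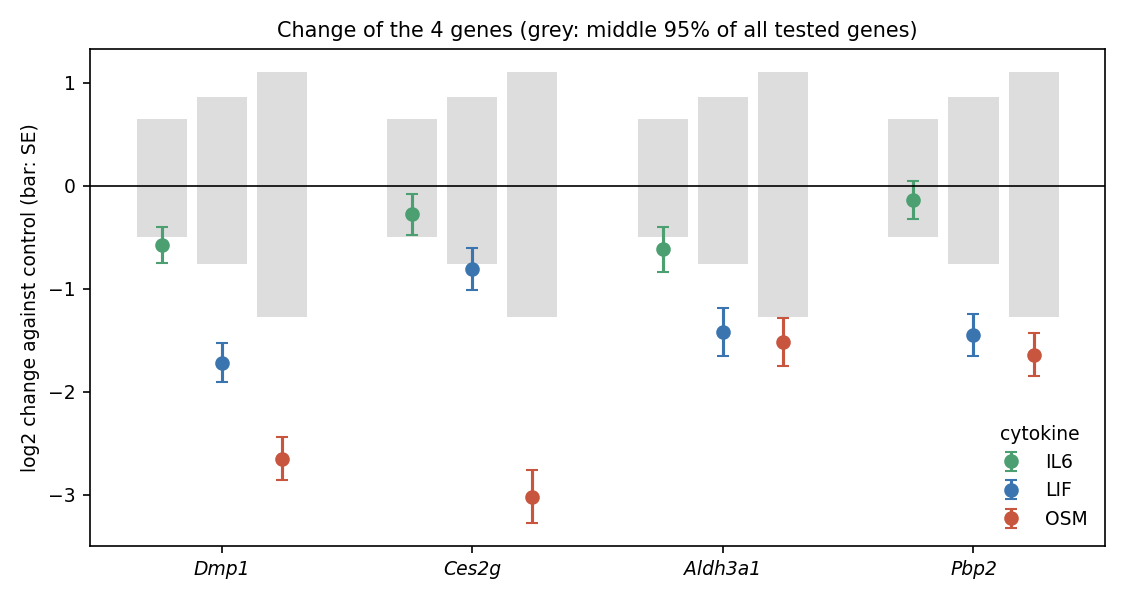
Log2 difference from control (vertical axis) of the 4 genes with IL6, LIF and OSM, with bars of 1 SE of the fit; each grey block spans the middle 95% of the tested genes for that cytokine. All 4 genes lie below the block with OSM, between -1.52 and -3.02, and with LIF, between -0.81 and -1.72, while with IL6 Dmp1 (-0.58) and Aldh3a1 (-0.62) lie just under its edge at -0.49 and the other two inside it.

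The only relative of Dmp1 with enough counts to test went the other way with OSM. Of the 4 other SIBLING genes only Spp1 passed the count filter: Dspp was at 0 counts in every library, and Ibsp and Mepe had at most 1 count. Spp1, which encodes the secreted matrix phosphoprotein osteopontin, stood at 1570 and 1610 CPM in control, 1530 and 1610 with IL6, 1790 and 1910 with LIF, and 5020 and 4800 with OSM. It rose with OSM by 1.63 on the log2 scale (SE 0.0661, adjusted p = 5e-09, edgeR), where 21.4% of tested genes were called (10.8% higher, 10.6% lower). With LIF its difference was 0.22 (adjusted p = 0.0575), and it was higher with OSM than with LIF by 1.41 (adjusted p = 2.03e-07, edgeR), where 8.04% of tested genes were called. The LIF value passed the threshold when either IL6 library was left out.

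Of 21 genes of mineralisation and phosphate handling, 16 were tested. With OSM 4 rose and 3 fell, where 21.4% of all tested genes were called (10.8% higher, 10.6% lower). With LIF 3 rose and 3 fell, where 7.66% of all tested genes were called (4.20% higher, 3.46% lower). With IL6 none was called by edgeR. The list median was 0.13 with OSM and 0.01 with LIF on the log2 scale, beside -0.0029 and -0.0079 over all tested genes. Pdpn, a membrane glycoprotein also used as a marker of early osteocytes, rose from 50.7 and 58.7 CPM in control to 89.6 and 88.2 with LIF and 124 and 121 with OSM (log2 1.16 with OSM, SE 0.0762, adjusted p = 1.99e-07, edgeR). Runx2, the transcription factor of the osteoblast lineage, rose with OSM by 0.60 (adjusted p = 0.000471), from 20.5 CPM in each control library to 28.9 and 33.3. Sp7, which acts after Runx2 in that lineage, had 2 to 14 counts and was not tested.

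Genes that move phosphate and pyrophosphate went both ways. Ank, which exports pyrophosphate, an inhibitor of mineral growth, had log2 changes of -0.54 with OSM and -0.75 with LIF (adjusted p = 5.36e-05 and 1.93e-05, edgeR). Slc20a1, a sodium-phosphate importer, had changes of -0.47 and -0.34 (adjusted p = 0.000673 and 0.0151), while its relative Slc20a2 rose by 0.28 and 0.30 (adjusted p = 0.0176 and 0.0294). Phospho1, a phosphatase of matrix vesicles, rose by 0.32 and 0.48 (adjusted p = 0.0488 and 0.0139). Fam20c, the remaining called gene of the list, had changes of -0.27 and -0.46 (adjusted p = 0.0167 and 0.00173, edgeR). Its OSM call was lost without control replicate 2 or either OSM library, and its LIF call held in every alternative. The calls of Pdpn and Ank against control, and that of Runx2 with OSM, held in all 13 alternatives. With OSM, Slc20a2 was not called without control replicate 1 or either OSM library, and Phospho1 was not called by DESeq2, with only the 2 groups fitted, or without any 1 library of the control, LIF or OSM groups. With LIF, Slc20a1 and Phospho1 were not called without control replicate 2 or either LIF library, and Slc20a2 without control replicate 1 or any LIF or OSM library.

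Carboxylesterases other than Ces2g had few counts in these cultures. Of 19 listed genes 18 were matched to the files, 8 were at 0 counts in every library and 3 were tested. Ces2e, which lies next but one to Ces2g on chromosome 8, had 11 and 22 counts in control, 12 and 21 with IL6, 4 and 8 with LIF, and 2 and 3 with OSM. Its OSM libraries lay below all others, at far fewer counts than Ces2g. It fell by 2.66 on the log2 scale with OSM (SE 0.672, adjusted p = 0.0123, edgeR), was given no adjusted p by DESeq2, and lost the call without control replicate 2 or either OSM library. With LIF its difference was -1.45 (adjusted p = 0.156). Ces2f, which lies between them and shares sequence with Ces2g, had 0 to 4 counts. Ces2c had the highest level per kilobase of the listed genes and a log2 difference of -0.35 with OSM (adjusted p = 0.57). The median of the 3 tested genes was -0.54 with OSM and -0.27 with LIF.

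Enzymes that hydrolyse neutral lipids, listed for their likeness to Ces2g in function, changed in both directions with OSM. Of 8 tested, 3 rose and 1 fell with OSM (21.4% of all tested genes were called) and 1 rose with LIF (7.66%), and the medians were 0.01 and -0.05. Lpl, the lipoprotein lipase, fell by 1.0 on the log2 scale with OSM (SE 0.193, adjusted p = 0.00369, edgeR), from 15.3 and 18 CPM in control to 6.74 and 9.9. Lipe, the hormone-sensitive lipase, rose by 0.75 (adjusted p = 0.0066), from 4.74 and 5.74 CPM to 9.48 and 8.19. Abhd5, the coactivator of adipose triglyceride lipase, rose with OSM by 0.35 (adjusted p = 0.0138), and Mgll, the monoacylglycerol lipase, by 0.25 with OSM and 0.35 with LIF (adjusted p = 0.0441 and 0.0198). The call of Lpl held in all 13 alternatives. Those of Lipe (without control replicate 1 or OSM replicate 1) and Abhd5 (without control replicate 1 or either OSM library) were lost, as was that of Mgll with OSM by DESeq2, without the count filter, with only the 2 groups fitted, and without control replicate 2 or any LIF or OSM library, and with LIF without control replicate 2 or either LIF library.

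Aldehyde dehydrogenases other than Aldh3a1 changed in both directions with OSM. Of 17 tested, 3 rose and 2 fell with OSM, a share near the 21.4% of all tested genes, none was called with LIF (7.66% of all) or IL6 by edgeR, and the medians were -0.08 with OSM and -0.04 with LIF. With LIF, leaving out either control library gave 1 call and leaving out either IL6 library gave 2. Aldh18a1, which makes the precursor of proline, fell with OSM from 222 and 187 CPM to 112 and 125 CPM (log2 -0.79, SE 0.0827, adjusted p = 1.61e-05, edgeR), and was lower than with LIF by a log2 difference of -0.56 (adjusted p = 0.000826). Aldh1l1, a folate enzyme, rose by 1.64 (SE 0.338, adjusted p = 0.00356) from 0.515 and 0.437 CPM to 1.3 and 1.68. Aldh9a1 rose by 0.36 (adjusted p = 0.00812) and Aldh3b1 by 0.59 (adjusted p = 0.0219), while Aldh1a3, a retinaldehyde dehydrogenase, fell by 1.33 (adjusted p = 0.0363) and stood at 0.755 CPM or less in every library.

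The nearest relative of Aldh3a1 was not called with either cytokine. Aldh3a2, the fatty aldehyde dehydrogenase that lies beside Aldh3a1 on chromosome 11, had 708 to 812 counts in the 8 libraries, with a log2 difference of -0.08 with OSM (adjusted p = 0.52, edgeR) and -0.07 with LIF (adjusted p = 0.718). Aldh1l2, a mitochondrial folate enzyme, had the highest level per kilobase of the family and a difference of -0.28 with OSM (adjusted p = 0.193). The calls of Aldh18a1 and Aldh1l1 with OSM held in all 13 alternatives. Those of Aldh9a1 and Aldh3b1 were lost without control replicate 1 or either OSM library, and that of Aldh1a3 without any 1 library of the control, LIF or OSM groups and with DESeq2.

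Among genes of the aryl hydrocarbon receptor pathway, Nqo1 had the largest fall with OSM. Nqo1 encodes a quinone reductase that is a known target of both this receptor and the antioxidant factor Nrf2. It stood at 40.4 and 47.7 CPM in control, 25.6 and 37.9 with IL6, 16.8 and 18 with LIF, and 12.3 and 13.3 with OSM, without overlap between any neighbouring groups. Its log2 change was -1.79 with OSM (SE 0.166, adjusted p = 3.31e-05, edgeR) and -1.34 with LIF (adjusted p = 0.000919), and both calls held in all 13 alternatives. Cyp1a1, the classical target of the receptor, had 96 and 73 counts in control, 61 and 61 with IL6, 21 and 30 with LIF, and 53 and 38 with OSM. Its log2 change was -1.74 with LIF (adjusted p = 0.00248) and -0.89 with OSM (adjusted p = 0.0277). Here the LIF libraries were the lowest, and the OSM libraries lay between them and IL6. The OSM call of Cyp1a1 was lost with DESeq2 and without control replicate 1 or either OSM library.

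The other called genes of that list were higher. Tiparp, another target, which encodes a mono-ADP-ribosyltransferase that restrains the receptor, rose with OSM by 0.33 and with LIF by 0.34 on the log2 scale (adjusted p = 0.00193 and 0.00436, edgeR), the LIF call being lost without either LIF library. Ahr, the receptor itself, rose with OSM by 0.60 (adjusted p = 0.0364), a call lost with DESeq2 and without any 1 library of the control, LIF or OSM groups. Of 9 tested genes 2 rose and 2 fell with OSM (21.4% of all tested genes were called), and 1 rose and 2 fell with LIF (7.66% of all). The list medians were -0.00 and 0.01. Cyp1b1, Arnt, the partner of the receptor, and Nfe2l2, the gene of Nrf2, were not called with either cytokine.

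Pebp1, the relative of Pbp2 that is known to restrain the Raf-ERK cascade, was not called with either cytokine. It had a mean of 267.1 ± 5.26 CPM (SD, n = 2) in control, 263.1 with IL6, 273.7 with LIF and 272.6 with OSM. Its log2 difference was 0.03 (SE 0.0646) with OSM, with an adjusted p of 0.797 in edgeR's test, and 0.03 with LIF (adjusted p = 0.832). Some 34.2% of its 50-base stretches are shared with other annotated genes, so its own counts are less certain than those of Pbp2. Of 11 tested genes of the family and the Raf-ERK cascade none was called with OSM by edgeR or DESeq2 (21.4% of all tested genes were by edgeR), although 3 were without IL6 replicate 1, 2 without IL6 replicate 2 and 1 without OSM replicate 2. The 1 called with LIF (7.66% of all tested genes were) was Ksr1, a scaffold of that cascade, which rose by 0.32 (adjusted p = 0.00584), a call lost without either LIF library. The medians were 0.03 with either cytokine.

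**Figure D3:**
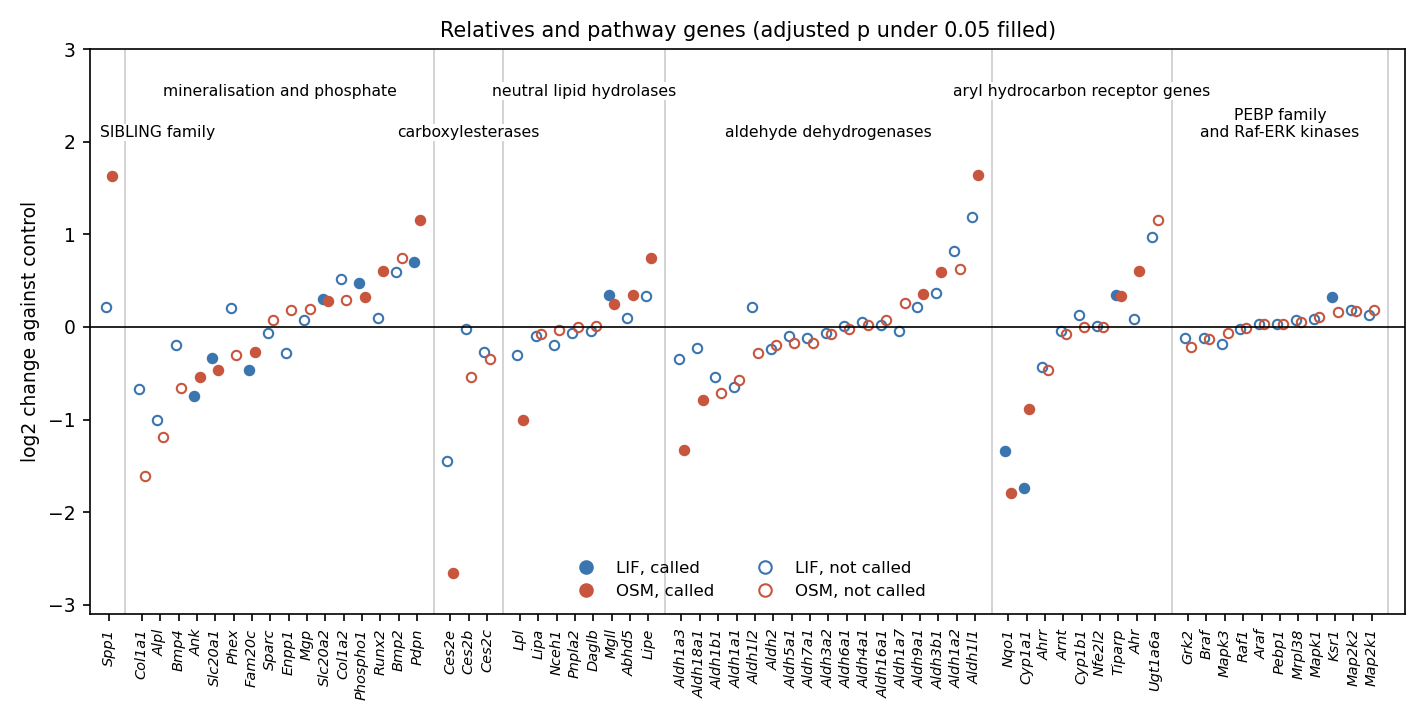
Log2 change against control with LIF (blue) and OSM (red) of every tested relative or pathway gene, by list, with filled points for an adjusted p under 0.05 in edgeR's test. Points of the lists lie on both sides of 0; Ces2e at -2.66, Nqo1 at -1.79 and Aldh1a3 at -1.33 are the lowest filled OSM points, and Spp1 at 1.63 and Aldh1l1 at 1.64 the highest.

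Genes most like each of the 4 across the 8 libraries were sought among the 10734 protein-coding genes that averaged 100 counts or more, by Pearson's r of log2 CPM. The points share libraries and groups, so r describes a shape and not a size. Because these genes were picked for following a gene that was itself picked for its fall, their values are a description and no test is given here. Among the 4 genes themselves r ran from 0.75 (Aldh3a1 and Ces2g) to 0.932 (Aldh3a1 and Dmp1), and none of them was among the nearest 3 of another.

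The genes closest to Ces2g were Kif18a (r = 0.999), a kinesin of the mitotic spindle, Ccna2 (r = 0.997), the S and G2 phase cyclin, and Zwilch (r = 0.997), a kinetochore protein. Ccna2 stood at 59.8 and 72 CPM in control, 57.1 and 61.7 with IL6, 47.7 and 43.8 with LIF, and 15.7 and 17 with OSM. The OSM libraries were far below the rest, the LIF libraries lay between them and IL6, and control replicate 2 lay above replicate 1. The log2 difference of Ccna2 from control was -2.01 (SE 0.0989) with OSM and -0.53 (SE 0.091) with LIF. With OSM, Kif18a stood at -1.77 and Zwilch at -2.10.

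Dmp1 lay closest to Slc20a1 (r = 0.99), the phosphate importer named above, Lsm5 (r = 0.989), an RNA-binding protein of the Lsm complex, and Scube3 (r = 0.988), a secreted and membrane-bound signalling protein. Scube3 had 169 and 201 counts in control, 152 and 174 with IL6, 93 and 109 with LIF, and 57 and 64 with OSM. Its LIF and OSM libraries did not overlap each other or the control libraries. The log2 difference of Scube3 from control was -1.61 (SE 0.184) with OSM and -0.89 (SE 0.171) with LIF. The other two had smaller values with OSM, -0.60 for Lsm5 and -0.47 for Slc20a1.

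Aldh3a1 lay closest to Ildr2 (r = 0.979), Phlpp2 (r = 0.977), a phosphatase of Akt, and Lef1 (r = 0.969), a transcription factor of Wnt signalling. Lef1 stood at 10.43 ± 0.729 CPM (SD, n = 2) in control, 9.439 ± 0.578 with IL6, 6.813 ± 0.36 with LIF and 6.423 ± 0.447 with OSM, with a log2 difference of -0.70 from control with OSM. Pbp2 lay closest to Nudt3 (r = 0.98), Gjc1 (r = 0.973), the gap junction protein connexin 45, and Plau (r = 0.97), the urokinase. Plau stood at -0.55 with OSM and -0.48 with LIF. The differences of Phlpp2 and Nudt3 with OSM were small, -0.18 and -0.14.

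**Figure D4:**
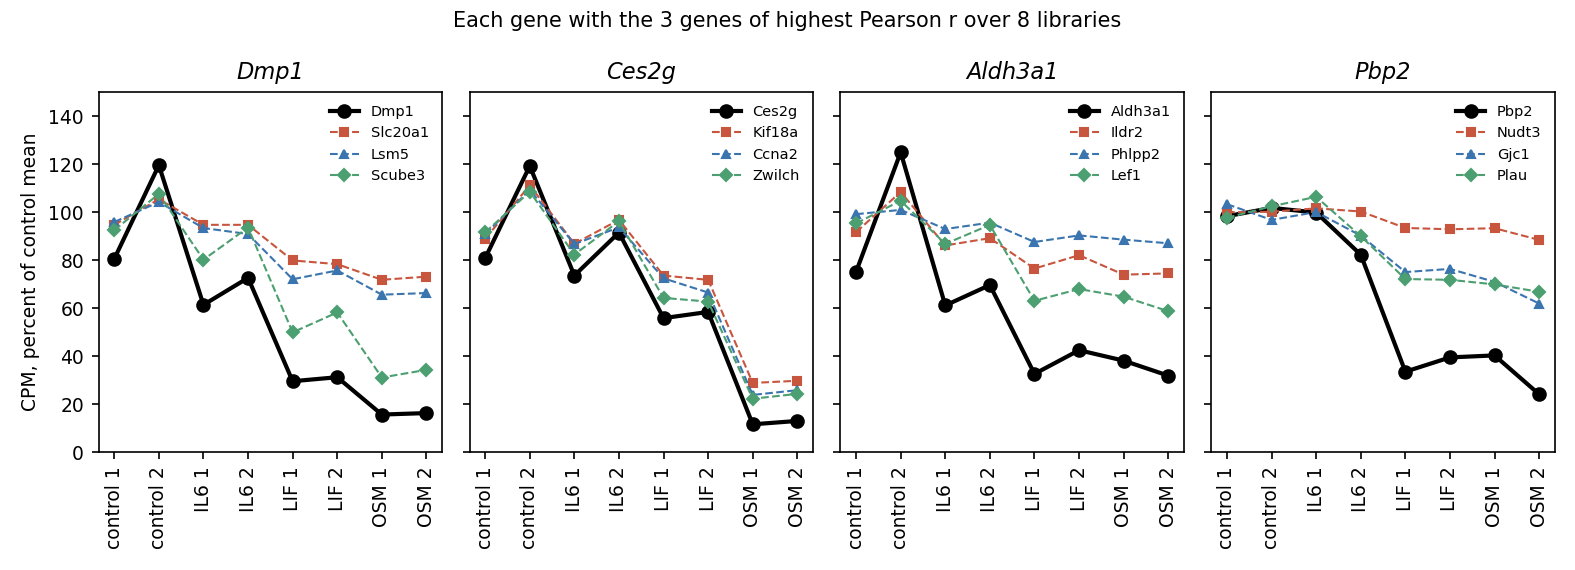
CPM of each of the 4 genes (black) and of the 3 genes closest to it, as a percent of the control mean (vertical axis), in the 8 libraries. Lines of a panel share their shape while the size differs: Ces2g and its 3 closest genes all drop steeply at OSM, and Phlpp2 and Nudt3 stay near the control level beside Aldh3a1 and Pbp2.

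Genes beside the 4 on the chromosome were looked at after the plan was set. Dmp1 on chromosome 5 lies between Dspp and Ibsp, which were near silent, with Sparcl1 beyond Dspp at a log2 difference of -0.61 with OSM (adjusted p = 0.0541, edgeR). Beside Aldh3a1 lie Aldh3a2, given above, and Usp22, with a log2 change of -0.18 with OSM (adjusted p = 0.04), a call lost with DESeq2, without the count filter and without any 1 library of the control, LIF or OSM groups. Beside Pbp2 on chromosome 6 lie Gsg1, with at most 3 counts, and Emp1, which had 7506 to 11124 counts with a log2 change of -0.47 with LIF (adjusted p = 0.00053) and -0.10 with OSM (adjusted p = 0.269). Beyond Gsg1 lies Fam234b, with a log2 change of -0.40 with OSM (adjusted p = 0.00821), lost without OSM replicate 2. Among the tested neighbours within 2 places of the 4 genes, only Ces2e fell by more than 1 on the log2 scale with OSM.

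The RefSeq promoter table of GRCm38.p6 held 4 windows for 3 of the 4 genes (Dmp1, with 2 start sites, Ces2g and Pbp2), each from 250 bases before to 50 after a start. The STAT motif TTCNNNGAA, searched on both strands, was in none of the 4 windows and in 8.3% of all 32851 windows of the table. The receptor core GCGTG was in the Pbp2 window only (32.4% of all windows), and TGACNNNGC, the antioxidant element, in the second Dmp1 window only (12.4%). The E-box CAGCTG of myogenic factors was in both Dmp1 windows (16.3%). All were searched on both strands, and no match of one motif overlapped a match of another. These are matches of letters, not binding sites. In GENCODE M21, 1 exon overlapped the 250 bases before the second Dmp1 start (chr5:104202367-104202616), and none overlapped those before the first. The 250 bases before the first Dmp1 start are shown with their CAGCTG E-box in capitals, from chr5:104197325-104197574 on the plus strand.
Dmp1 promoter: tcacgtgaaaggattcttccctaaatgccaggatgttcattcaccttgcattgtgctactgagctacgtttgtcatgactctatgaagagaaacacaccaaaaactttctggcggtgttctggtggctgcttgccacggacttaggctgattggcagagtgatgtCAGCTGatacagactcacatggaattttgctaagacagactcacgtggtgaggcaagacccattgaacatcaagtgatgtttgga

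Some markers of other cell types moved with the cytokines too, while no tested endothelial or Schwann marker was called with any cytokine. Over all tested genes 10.8% were called higher and 10.6% lower with OSM, and 4.20% higher with LIF. How the marker calls fare in the alternatives is not given here. Fibroblast markers summed to 1340 to 1550 CPM in control, 1410 to 1540 with IL6, 1860 to 1870 with LIF and 1990 to 2080 with OSM. Nearly all of this sum was Col3a1, with 38820 to 61502 counts per library against at most 429 for any other marker. Col3a1 was called higher with OSM and LIF, and Pdgfra with OSM. Dcn was not called, and Lum was at 0 in every library. Pi16, not tested, had 11 and 5 counts in control and 1 and 2 with OSM. Myoblast markers summed to 301 to 336 CPM in control and 357 to 366 with OSM. Pax7 and Myf5 were called higher with OSM, and Myod1, Cdh15 and Vcam1 were not called. Of 7 osteoblast and osteocyte markers only Phex was tested, the others had at most 14 counts, and the sum was 3.26 to 3.39 CPM in control, 3.77 to 4.22 with IL6, 3.55 to 3.67 with LIF and 2.62 to 3.04 with OSM. Smooth muscle and pericyte markers summed to 2.06 to 2.52 CPM in control and 0.65 to 1.58 with OSM. Rgs5, at 5 to 31 counts per library, was called lower with OSM (adjusted p = 0.0244, edgeR), and Cspg4 was not called. Macrophage and adipocyte sums stayed under 5 CPM in all libraries. Cd68 and Fabp4, the only tested markers of these lists, were called higher with OSM (adjusted p = 0.00186 and 0.0104, edgeR). Fabp4 had only 7 to 44 counts per library. Tenocyte markers summed to 29.4 to 32.1 CPM in control and 32.9 to 34.4 with OSM, with Mkx called higher with OSM and Scx not called. The part of other cell types in the levels of the 4 genes was not tested.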

How the data were processed

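Stranded mRNA libraries of primary myotubes were measured, 8 in all, 2 for each of control, IL6, LIF and OSM, and groups follow the sample titles. The authors deposited raw read counts per gene, 1 file per library. The submitters' processing notes name FastQC 0.11.9, MultiQC 1.12, Trim Galore 0.6.5, STAR 2.7.3a, HTSeq 0.11.1, DESeq2 1.34.0 and the builds GRCm39 and mm39. The strand setting of the counting is not given in the sources used here. Lines for reads assigned to no gene, 11.7% to 12.7% of each library, were left out.

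Symbols came from GENCODE M21 (GRCm38), which gave one to 52093 of 53647 identifiers, as did exon lengths, so lengths may differ from those used in counting. In edgeR 4.0.16 (R 4.3.3), genes were filtered with filterByExpr (minimum count 10, leaving 15603), scaled by TMM and fitted with a robust quasi-likelihood model of the 4 groups over 8 libraries. Adjusted p-values are Benjamini-Hochberg values over all tested genes of a contrast, and a gene was called under 0.05. CPM are TMM-scaled. Each SE is the size of the log2 difference divided by the square root of the F value of edgeR's test. The 95% intervals are built on that SE. The procedure was tried on simulated counts with the same spread for every gene and changes planted only in OSM. That trial looked only at OSM against control, so it does not cover the IL6 comparison.

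The 4 genes and all lists were chosen with earlier results of these data known. From each list the called genes were named (the 6 largest OSM changes where more than 6 were called, with Fam20c added), and in gene families also the gene with the highest level. For each of the 4 genes the 3 most similar by Pearson's r (log2 CPM, prior count 2) were named. Chromosomal neighbours were picked by position from RefSeq. Alternatives were another scaling (RLE), DESeq2 1.42.0, no count filter, a fit of only the groups compared, the replicate number as a block, each library left out in turn, and, for the 4 genes, a ratio of mean CPM plus 1. Counting errors cover counting only, since reads carry no molecular identifiers.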

Additional observations from a re-analysis of the deposited data

How the results depend on the processing

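With 2 libraries per group, leaving out 1 assumes that the lone library varies like the other groups. The numbers of genes called ranged over these fits from 1622 to 4067 for OSM (lowest without OSM replicate 1, 1865 without OSM replicate 2), 316 to 1688 for LIF (lowest without LIF replicate 2, 443 without LIF replicate 1), 0 to 221 for IL6 (highest without IL6 replicate 2) and 437 to 1764 for OSM against LIF (lowest without LIF replicate 1, 450 without OSM replicate 1). Log2 differences ranged, for OSM, LIF, IL6 and OSM against LIF in turn, from -2.91 to -2.33, -1.98 to -1.40, -0.84 to -0.26 and -0.97 to -0.89 for Dmp1. For Ces2g they ranged from -3.27 to -2.70, -1.06 to -0.50, -0.53 to 0.03 (without control replicate 2) and -2.29 to -2.13. For Aldh3a1 they ranged from -1.84 to -1.09, -1.73 to -1.0, -0.94 to -0.20 and -0.28 to 0.10 (without LIF replicate 2, and 0.03 without OSM replicate 2). For Pbp2 they ranged from -2.04 to -1.31, -1.58 to -1.34, -0.28 to -0.00 and -0.59 to 0.15 (without OSM replicate 2). List calls with OSM ranged from 4 to 8 for mineralisation (4 without either OSM library), 0 to 1 for carboxylesterases, 1 to 4 for lipid hydrolases, 2 to 6 for aldehyde dehydrogenases, 2 to 4 for aryl hydrocarbon receptor genes and 0 to 3 for the PEBP list. With LIF they ranged from 0 to 1 for the SIBLING family, 3 to 6 for mineralisation (3 without either LIF library), 0 to 1 for lipid hydrolases, 0 to 2 for aldehyde dehydrogenases and 0 to 1 for the PEBP list.

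With a 2-fold minimum added, 763 genes were called for OSM and 176 for LIF. For IL6, DESeq2 called 17 genes, no count filter 97 and the replicate block 9, while a fit of only the 2 groups called 2928 for OSM against LIF. The ratio of mean CPM plus 1, which shrinks low levels by construction, gave -2.14 (OSM) and -0.66 (OSM against LIF) for Dmp1, -2.03 and -1.37 for Ces2g, and -1.18 (LIF) for Pbp2. Without a count filter, IL6 passed for Dmp1 (-0.59, adjusted p = 0.0323) and Aldh3a1 (-0.62, adjusted p = 0.013). The cause was not tested. Over all alternatives the adjusted p of the IL6 difference ran from 0.0323 to 1.0 for Dmp1, 0.376 to 1.0 for Ces2g, 0.013 to 1.0 for Aldh3a1 and 0.9 to 1.0 for Pbp2, and DESeq2 gave none for these genes. Spp1 was called with LIF (1 gene) by DESeq2, without the filter, with 2 groups and with the block. DESeq2 called 0 carboxylesterases (Ces2e had no adjusted p) and 2 aryl hydrocarbon receptor genes with OSM. Aldehyde dehydrogenases called with LIF were 3 without the filter, 1 with 2 groups and 1 with the block, and the PEBP list had 1 with OSM without the filter and 1 with the block.

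Replicate numbers are shared across groups but not stated to pair libraries, and deviations of same-numbered libraries correlated at 0.00708 to 0.181 between groups. With the replicate number as a block, 3966 genes were called for OSM, 1670 for LIF and 1760 for OSM against LIF. Counts of 21 to 55 per library, as for Ces2g and Dmp1 with OSM, limit the precision of those levels.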
